A study of Mus musculus with 6 samples.

Results

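Collagen VI is described here through the 5 genes Col6a1, Col6a2, Col6a3, Col6a5 and Col6a6, out of 32285 genes counted in nuclei of photothrombotic (PT) cortical lesions of the mouse. The genes were listed by name, and their grouping was chosen by measured values: it sets the classic chains (Col6a1, Col6a2, Col6a3) beside Col6a5 and Col6a6, whose level in fibroblasts was higher in ADWA11 than in Ctrl at 7 days post-injury (dpi). That comparison at 7 dpi is therefore given as a description, and nothing is read from it. The remaining gene of the family, Col6a4, was counted alongside and is given where it had UMIs.

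Nuclei were sorted on DAPI from dissected lesions and profiled by droplet single-nucleus RNA sequencing in 6 libraries, with 1 library per group. Ctrl mice were wild type, and no treatment is named for them. ADWA11 mice were wild type and were injected weekly from the day of injury with ADWA11, an antibody that blocks integrin αvβ8. Tgfbr2-cKO mice carried Col1a2(creER) and floxed Tgfbr2. Whether the Ctrl mice had tamoxifen or an isotype antibody is not stated for this experiment. Each condition was sampled at 7 and at 21 dpi, after the same PT injury, a focal stroke model in which a light-activated dye occludes vessels of the cortex. In the paper, the tamoxifen-inducible Cre under Col1a2 acted in only some of the resting fibroblasts. Tgfbr2-cKO lesions may thus hold both recombined and unrecombined cells, which was not measured here. Nuclei of 1 male and 1 female mouse were pooled in each library, so sex and mouse cannot be told apart, and no p-value is given.

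Collagen VI is a beaded microfibril of the extracellular matrix that links basement membranes and interstitial collagen to cells. Its monomer is a trimer of an alpha1 chain, an alpha2 chain and an alpha3-type chain, and alpha5 and alpha6 are relatives of alpha3 that can take the place of alpha3 in the trimer. Inherited defects of the classic chains cause muscle disease, and in the brain the protein lies in the meninges and around vessels, where fibroblasts are its main known source.

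The genes lie on 3 chromosomes of GRCm38 (GENCODE M21), all on the minus strand. Col6a1 (chr10:76708792-76726168) and Col6a2 (chr10:76595762-76623630) are neighbours 85161 bases apart with 1 annotated gene between them, and Col6a3 stands alone at chr1:90765923-90843971. Col6a6 (chr9:105687809-105828160), Col6a5 (chr9:105856078-105960643) and Col6a4 (chr9:105989454-106096783) form a row on chromosome 9, with 27917 bases between the first pair, 28810 bases between the second pair and no annotated gene in either gap. No counted gene on the same strand overlapped any of the 5.

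Promoters are shown for the 3 alpha3-type genes whose levels differed in opposite directions between libraries. Each is the 250 bases before the RefSeq transcription start (GRCm38.p6, minus strand, written 5′ to 3′), at chr1:90843972-90844221 for Col6a3, chr9:105960644-105960893 for Col6a5 and chr9:105828086-105828335 for Col6a6. Capitals mark matches to CAGAC (the core letters of a SMAD element) or GGGCGG (a GC box) on either strand, so GTCTG and CCGCCC are marked too, and no match overlaps another.
Col6a3: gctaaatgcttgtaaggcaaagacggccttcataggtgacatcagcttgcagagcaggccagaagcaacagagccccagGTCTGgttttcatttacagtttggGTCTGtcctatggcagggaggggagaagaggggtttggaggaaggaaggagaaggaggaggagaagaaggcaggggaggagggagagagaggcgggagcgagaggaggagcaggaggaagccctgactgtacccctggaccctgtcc
Col6a5: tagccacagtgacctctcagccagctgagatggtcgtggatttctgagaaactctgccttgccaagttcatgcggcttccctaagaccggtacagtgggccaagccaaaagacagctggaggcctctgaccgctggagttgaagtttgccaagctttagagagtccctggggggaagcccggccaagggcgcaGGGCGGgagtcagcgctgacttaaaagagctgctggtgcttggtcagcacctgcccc
Col6a6: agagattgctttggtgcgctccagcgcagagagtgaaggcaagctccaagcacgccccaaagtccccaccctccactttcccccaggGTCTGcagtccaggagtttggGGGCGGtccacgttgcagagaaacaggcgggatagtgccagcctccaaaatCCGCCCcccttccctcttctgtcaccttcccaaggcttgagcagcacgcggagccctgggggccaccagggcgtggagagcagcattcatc
The Col6a3 window held 2 SMAD core matches, 171 and 147 bases before the start, and no GC box. Col6a5 held 1 GC box, 57 bases before the start, and no SMAD core match. Col6a6 held 2 GC boxes, 142 and 91 bases before the start, and 1 SMAD core match at 163 bases. Matches to these letters are common, since 42.2% of 32851 promoter windows held CAGAC and 32.7% held GGGCGG. The AP-1 element TGANTCA, found in 6.75% of windows, was present in Col6a1 alone among the 5 genes, 90 bases before its start. TATAAA, found in 12.4% of windows, was in none of the 5, and the TEAD element GGAATG, found in 12.6%, was in the window of a Col6a2 start only. GC content was 57.2% in Col6a3, 58.8% in Col6a5 and 62.4% in Col6a6, against a median of 52.4% over all windows.

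Libraries held 7205 to 14246 barcodes and 64798965 to 140310354 UMIs (unique molecular identifiers, each a counted RNA molecule), with a median of 4601.5 to 8222.5 UMIs per barcode. Any pair of libraries shared 21 to 61 cell barcodes, at most 0.513% of the smaller library. After filtering, 60003 nuclei were used, and 15363 of them were fibroblast-like by their markers, all 9 of which were at 4.89 to 39.9 times their level in the other nuclei. A pair of the fibroblast sub-clusters were unnamed and low in UMIs, at 0.235 and 0.253 of their libraries' median: one of 1424 nuclei was led by Igha, Igkc and the myeloid marker C1qa, the other of 1046 nuclei by Gabrb1, Rorb and Rfx4. They were kept, and made up 0.693 and 22.6% of the Tgfbr2-cKO fibroblasts at 7 dpi and 16.1 and 10.8% of those of Ctrl at 21 dpi. Without both, the log2 ratios between libraries over all fibroblasts, given below for the 5 genes, each stayed inside the counting interval. The fibroblast-like nuclei numbered 2189 in Ctrl, 2691 in ADWA11 and 433 in Tgfbr2-cKO at 7 dpi, then 5919, 3055 and 1076 at 21 dpi. Neurons supplied 6013 of the 10577 used nuclei of Tgfbr2-cKO at 7 dpi, so the fibroblast values of that library rest on the fewest nuclei. Levels are given as CPM, the UMIs of a gene per 1000000 non-mitochondrial UMIs of the same class and library, and all intervals are 95% intervals that cover counting error only. Tgfbr2, the targeted receptor, was at 317 CPM in Ctrl, 244 in ADWA11 and 236 in Tgfbr2-cKO fibroblasts at 7 dpi, then at 224, 193 and 184 CPM at 21 dpi. These gene counts do not resolve the floxed exons, so they check the deletion only weakly.

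Col6a1 and Col6a2, which form the constant part of the trimer, were the steadier members in fibroblast-like nuclei. Col6a1 was at 102 CPM in Ctrl, 96.4 in ADWA11 and 89.7 in Tgfbr2-cKO at 7 dpi, then at 137, 115 and 77.9 CPM at 21 dpi. Col6a2 was at 167, 141 and 91.9 CPM at 7 dpi, then at 173, 144 and 90.1 CPM at 21 dpi in the same order. Both genes were highest in Ctrl and lowest in Tgfbr2-cKO at each time. At 7 dpi the Col6a1 levels of ADWA11 and of Tgfbr2-cKO were not apart from Ctrl beyond counting error.

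Col6a3, the classic alpha3 chain, had a wider range. Its level was 348 CPM in Ctrl, 199 in ADWA11 and 225 in Tgfbr2-cKO at 7 dpi, then 205, 87.0 and 55.1 CPM at 21 dpi. Ctrl at 7 dpi stood highest, with an interval of 339 to 357 CPM, and ADWA11 and Tgfbr2-cKO at 21 dpi stood lowest. Ctrl at 21 dpi, at 200 to 210 CPM, lay between the intervals of ADWA11 (194 to 205) and Tgfbr2-cKO (206 to 245) at 7 dpi and overlapped both.

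Col6a5 and Col6a6, alternatives to the alpha3 chain, ordered the libraries in another way. At 7 dpi Col6a5 was at 26.7 CPM in Ctrl (interval 24.3 to 29.2), 116 in ADWA11 (112 to 120) and 99.1 in Tgfbr2-cKO (86.8 to 113). Its level at 21 dpi was 31.7 CPM in Ctrl (29.9 to 33.7), 85.2 in ADWA11 (81.6 to 89.0) and 17.9 in Tgfbr2-cKO (15.1 to 21.0). Tgfbr2-cKO thus held the lowest level of all libraries at 21 dpi. At 7 dpi its female and male mice, at 146 and 40.3 CPM, lay on either side of the pooled ADWA11 level. Col6a6 at 7 dpi was at 8.36 CPM in Ctrl (7.04 to 9.85), 54.6 in ADWA11 (51.8 to 57.5) and 50.8 in Tgfbr2-cKO (42.1 to 60.8). Levels at 21 dpi were 5.22 CPM in Ctrl (4.48 to 6.05), 18.4 in ADWA11 (16.7 to 20.2) and 5.48 in Tgfbr2-cKO (4.01 to 7.31). With mice pooled, the Col6a6 intervals of ADWA11 and Tgfbr2-cKO overlapped at 7 dpi, as did those of Ctrl and Tgfbr2-cKO at 21 dpi. The mice went opposite ways at 7 dpi, so no likeness is drawn. Female and male were at 21.2 and 95.1 CPM in ADWA11, but at 107 and 10.6 CPM in Tgfbr2-cKO. The Tgfbr2-cKO levels rest on few molecules, with 232 Col6a5 and 119 Col6a6 UMIs at 7 dpi, then 150 and 46 at 21 dpi. Col6a4, a further alternative chain, had 2 to 24 UMIs per library in fibroblast-like nuclei, too few to be counted among genes past 2-fold. Its log2 ratio to Ctrl at 7 dpi was 1.38 (interval 0.05 to 2.96) in ADWA11 and 1.28 (-2.07 to 3.76) in Tgfbr2-cKO. At 21 dpi the Col6a4 ratio was 1.32 (-0.65 to 3.54) in ADWA11 and 2.60 (0.52 to 4.87) in Tgfbr2-cKO. With so few UMIs, nothing is read from these ratios.

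**Figure D1:**
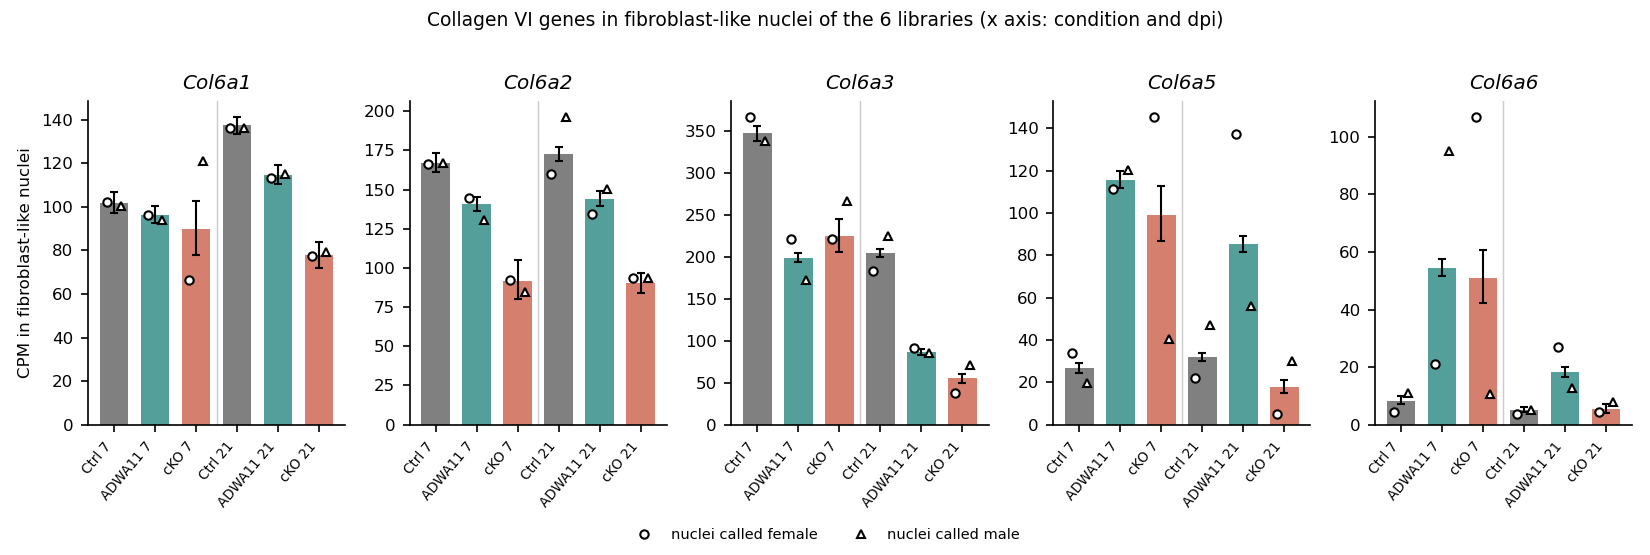
Level of each collagen VI gene in fibroblast-like nuclei of the 6 libraries, in CPM with the 95% counting interval as bars, 1 panel per gene. Col6a3 is highest in Ctrl at 7 dpi (348 CPM), while Col6a5 and Col6a6 are highest in ADWA11 at 7 dpi (116 and 54.6 CPM).

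For ADWA11 against Ctrl at 7 dpi, the comparison that chose Col6a5 and Col6a6, the log2 ratio was 2.12 (interval 1.97 to 2.26) for Col6a5 and 2.71 (2.46 to 2.97) for Col6a6. Col6a1 was at -0.08 (-0.17 to 0.01), Col6a2 at -0.25 (-0.32 to -0.18) and Col6a3 at -0.80 (-0.86 to -0.75). Past 2-fold, 2 of 5 members were higher and 0 lower. Over the 14927 genes with at least 50 UMIs in the 2 libraries, 4.72% were over 2-fold higher and 2.54% over 2-fold lower, and nothing is read from the members' count here. All 5 members had at least 50 UMIs in every pair of libraries, and Col6a4 had fewer in all.

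At 21 dpi, in libraries the grouping rule did not use, though the members were chosen with earlier results of these data known, ADWA11 held more Col6a5 and Col6a6 and less Col6a3 than Ctrl. The log2 ratio was 1.43 for Col6a5 (interval 1.32 to 1.53, 2.69-fold), 1.82 for Col6a6 (1.56 to 2.08, 3.52-fold) and -1.24 for Col6a3 (-1.31 to -1.17). Col6a1 and Col6a2 were each at -0.26, with intervals of -0.33 to -0.19 and -0.32 to -0.20. Past 2-fold, 2 of 5 members were higher, where 2.43% of 16025 genes were, and 1 of 5 was lower, where 3.72% were. The ratio of Col6a3 was -0.18 when ADWA11 was reweighted to the mix of fibroblast sub-clusters in Ctrl, and that of Col6a5 was 0.75, so both were then inside 2-fold, while Col6a6 stayed at 1.52. Male nuclei alone gave 0.26 for Col6a5.

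Tgfbr2-cKO shares its Ctrl libraries with the ADWA11 comparisons, so the values are set side by side and no likeness is drawn from them. At 7 dpi the log2 ratio to Ctrl was 1.89 for Col6a5 (interval 1.66 to 2.13, 3.72-fold) and 2.61 for Col6a6 (2.24 to 2.97, 6.09-fold). Col6a3 was at -0.63 (-0.76 to -0.50), Col6a2 at -0.86 (-1.07 to -0.66) and Col6a1 at -0.18 (-0.40 to 0.02), the last at -0.62 in female and 0.27 in male nuclei. Past 2-fold, 2 of 5 members were higher and 0 lower, beside 7.39% and 2.99% of 13066 genes. The Ctrl library at 7 dpi is one of the pair that chose Col6a5 and Col6a6, so nothing is read from this count. The higher Col6a6 came from the female mouse, since male nuclei alone gave -0.07. In these 433 nuclei the 7 neuronal markers summed to 277 CPM, against 10.0 CPM in Ctrl fibroblasts at 7 dpi, the 6 oligodendrocyte markers to 100 against 20.8 and the 7 astrocyte markers to 1119 against 832, while the 9 fibroblast markers summed to 6224 against 9949 CPM. Of these, Col1a1, Col1a2 and Col3a1 made 3108 against 6935 CPM, and the other 6 made 3116 against 3015 CPM. The part of RNA of other classes in the values of all 5 chains was not tested.

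By 21 dpi the Tgfbr2-cKO fibroblasts no longer held more of either alternative chain. Col6a5 was lower than in Ctrl, at a log2 ratio of -0.83 (interval -1.09 to -0.58), and Col6a6 was at 0.07 (-0.43 to 0.54), or -1.31 when reweighted to the sub-cluster mix of Ctrl. The classic chains were lower as well, Col6a1 at -0.82 (-0.94 to -0.70), Col6a2 at -0.94 (-1.05 to -0.83) and Col6a3 at -1.89 (-2.03 to -1.76). Col6a3 stood at 0.269 of its Ctrl level. When reweighted to the sub-cluster mix of Ctrl, Col6a1 was at -0.27, Col6a2 at -0.21 and Col6a3 at -1.01. The part of the sub-cluster mix in the lower classic chains was not tested. Past 2-fold, 0 of 5 members were higher, where 7.78% of 15404 genes were, and 1 of 5 was lower, where 6.28% were. The number lower was 2 with the mean of CPM per nucleus, in female nuclei, in male nuclei and with collagen VI genes kept in clustering, and 3 without the 5 nuclei with the most UMIs and after reweighting. Other markers moved in the same library: the 9 fibroblast markers summed to 4505 CPM against 8034 in Ctrl at 21 dpi. The lower sum lay in Col1a1, Col1a2 and Col3a1, at 1031 against 5488 CPM, while the other 6 summed to 3474 against 2546 CPM. The 7 astrocyte markers summed to 1217 CPM against 512, the 6 oligodendrocyte markers to 200 against 36.1 and the 7 neuronal markers to 102 against 11.4, with no marker at 0 in either library. Their part in the lower values was not tested. An unnamed sub-cluster led by Gabrg3 and Ebf3 made up 29.0% of these fibroblasts (312 of 1076) and at most 1.85% of any other library. Of the fibroblast UMIs in Tgfbr2-cKO at 21 dpi, it held 45.3% of Col6a1, 52.7% of Col6a2, 51.4% of Col6a3, 62.7% of Col6a5 and 43.5% of Col6a6. Over all genes it held 3231034 of the 8397383 non-mitochondrial UMIs of these fibroblasts, more than its share of nuclei. In Ctrl at 21 dpi, 1 such nucleus was found.

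**Figure D2:**
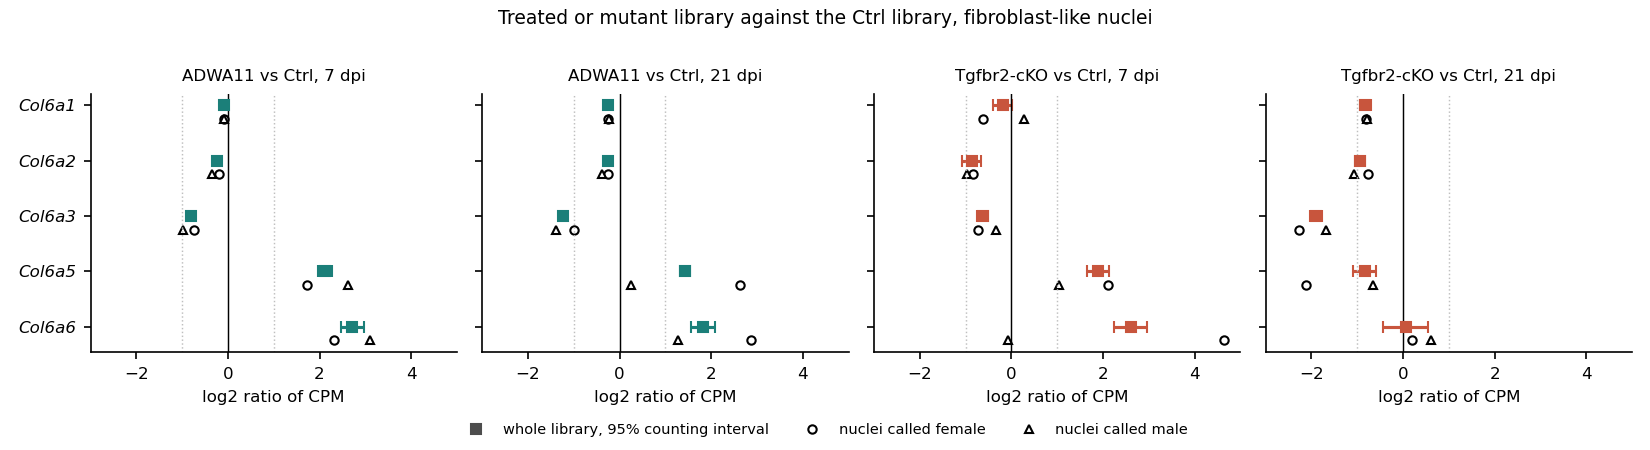
Log2 ratio of each collagen VI gene between libraries in fibroblast-like nuclei, for ADWA11 and Tgfbr2-cKO against Ctrl at 7 and 21 dpi, with 95% counting intervals as bars. Col6a5 runs from 2.12 (ADWA11, 7 dpi) to -0.83 (Tgfbr2-cKO, 21 dpi), and Col6a3 lies below 0 in all 4 comparisons.

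Within a condition, Col6a3 was lower at 21 than at 7 dpi in each of the 3 pairs, with log2 ratios of -0.76 in Ctrl, -1.20 in ADWA11 and -2.03 in Tgfbr2-cKO. Col6a6 was at -0.68, -1.57 and -3.21 in the same order. Col6a5 was at 0.25 in Ctrl, -0.44 in ADWA11 and -2.47 in Tgfbr2-cKO. The 7 dpi values of Ctrl and ADWA11 chose Col6a5 and Col6a6, so their changes in these conditions are a description. Col6a2 stood at 0.05, 0.04 and -0.03, each with an interval that held 0. Col6a1 was at 0.43, 0.25 and -0.20, and its value in ADWA11 turned to -0.16 when the 21 dpi library was reweighted to the sub-cluster mix at 7 dpi. Reweighted in this way, Col6a3 was at -0.31 in Ctrl, -0.17 in ADWA11 and -1.21 in Tgfbr2-cKO. In Tgfbr2-cKO the myofibroblast-like sub-cluster, with 5 nuclei at 21 dpi, was among those left out of the reweighting. Past 2-fold, none of the 5 was higher in any pair, against 12.1% of genes in Ctrl, 9.83% in ADWA11 and 5.86% in Tgfbr2-cKO. The number past 2-fold lower was 0 in Ctrl, 2 in ADWA11 and 3 in Tgfbr2-cKO, against 5.12%, 7.51% and 6.09% of genes. The directions of Col6a5 and Col6a6 in Ctrl and ADWA11 depended on the mouse or the sub-cluster mix, with the values given among the effects of the processing.

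The nuclei of each library were divided by Xist and Y-linked UMIs into those of the female and those of the male mouse. Of the 15363 fibroblast-like nuclei, 7032 were called female and 5521 male, and the rest are not in the values per mouse. Col6a3 was at 368 CPM in female and 338 in male fibroblasts of Ctrl at 7 dpi, at 221 and 172 in ADWA11, and at 221 and 267 in Tgfbr2-cKO. At 21 dpi it was at 184 and 225 CPM in Ctrl, 91.5 and 85.5 in ADWA11, and 38.0 and 70.7 in Tgfbr2-cKO. In all 4 comparisons with Ctrl both mice stood below both Ctrl mice for Col6a3. Of genes with at least 50 UMIs, 22.6 and 25.9% were so placed for ADWA11 at 7 and 21 dpi, and 18.6 and 31.6% for Tgfbr2-cKO. Within sub-clusters the mice overlapped in some of these comparisons, as given below.

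Mice differed more in the alternative chains. Col6a5 was at 33.7 CPM in the female and 19.6 in the male of Ctrl at 7 dpi, at 111 and 120 in ADWA11, and at 146 and 40.3 in Tgfbr2-cKO. At 21 dpi the female and male were at 22.1 and 47.0 CPM in Ctrl, 137 and 56.2 in ADWA11, and 5.07 and 30 in Tgfbr2-cKO. Both mice with ADWA11 stood above both Ctrl mice at each time, at 7 dpi in values that chose the gene. Both Tgfbr2-cKO mice were also above both Ctrl mice at 7 dpi, but at 21 dpi the Tgfbr2-cKO male lay between the Ctrl female and the Ctrl male. Col6a6 was at 4.28 and 11.1 CPM in Ctrl at 7 dpi, 21.2 and 95.1 in ADWA11, and 107 and 10.6 in Tgfbr2-cKO. Its values at 21 dpi were 3.71 and 5.23 CPM in Ctrl, 27.0 and 12.6 in ADWA11, and 4.23 and 8.04 in Tgfbr2-cKO. The ADWA11 mice again did not overlap Ctrl, but the mouse with the higher Col6a6 was the male at 7 dpi and the female at 21 dpi, and the Tgfbr2-cKO male at 7 dpi lay between the Ctrl mice. In ADWA11 against Ctrl at 21 dpi, 2 members were higher and 3 lower in both mice, where 25.9% and 25.9% of genes were so placed. At 7 dpi the numbers were also 2 and 3, beside 36.9% and 22.6% of genes, and since these values chose the members nothing is read from them. In Tgfbr2-cKO against Ctrl, 1 member was higher and 2 lower at 7 dpi (32% and 18.6% of genes), and 0 were higher and 3 lower at 21 dpi (28.4% and 31.6%). For 21 against 7 dpi, 1 member was higher and 1 lower in both mice of Ctrl (42% and 30.9% of genes) and of ADWA11 (37.3% and 34.2%), and 1 was higher and 3 lower in Tgfbr2-cKO (21.4% and 29.1%).

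A ratio among the alpha3-type chains within a library is free of the library total, but not of the mix of fibroblast sub-clusters. Col6a5 and Col6a6 together made up 9.15% of the UMIs of Col6a3, Col6a5 and Col6a6 in Ctrl fibroblasts at 7 dpi (interval 8.46 to 9.87%), 46.1% in ADWA11 (45.1 to 47.1%) and 40% in Tgfbr2-cKO (36.7 to 43.3%). The share at 21 dpi was 15.3% in Ctrl (14.5 to 16.1%), 54.4% in ADWA11 (52.9 to 55.8%) and 29.7% in Tgfbr2-cKO (26.3 to 33.4%). Pooled over libraries, it was 55.1% in the Slc47a2-led, 47.2% in the leptomeningeal-like and 12.3% in the myofibroblast-like sub-cluster, all described below. Levels also differed between libraries within a sub-cluster, as given below, so a pooled share does not stand for each library. At 21 dpi these sub-clusters made up 73.8, 4.12 and 4.32% of ADWA11 fibroblasts, against 29.7, 4.75 and 24.4% in Ctrl. The part of this mix in the shares was not tested. Genes yield UMIs at different rates, so these shares compare libraries and do not give the make-up of the trimers. Mice within a library stood far apart here: the share was 53.3% in the female and 16% in the male of Tgfbr2-cKO at 7 dpi, then 64.2% and 44.6% in ADWA11 at 21 dpi. Both mice of every ADWA11 library were above both Ctrl mice of the same time, the Ctrl mice being at 9.36 and 8.33% at 7 dpi, then at 12.3 and 18.8% at 21 dpi. The 7 dpi shares of ADWA11 and Ctrl rest on the values that chose the genes and are a description. Measured per UMI of Col6a1 and Col6a2, Col6a3 had 1.29 UMIs in Ctrl, 0.841 in ADWA11 and 1.24 in Tgfbr2-cKO at 7 dpi, then 0.661, 0.336 and 0.328 at 21 dpi.

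**Figure D3:**
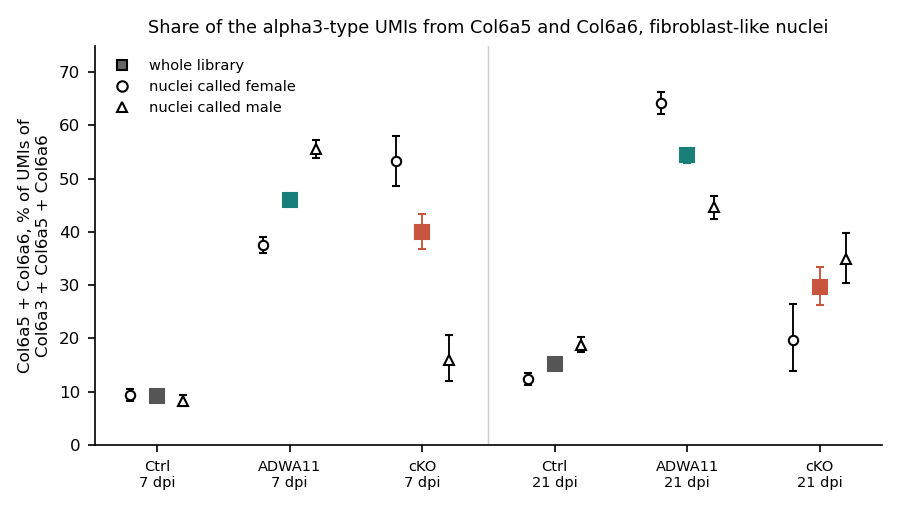
Share of Col6a5 and Col6a6 among the UMIs of Col6a3, Col6a5 and Col6a6 in fibroblast-like nuclei, in percent, per library with the 95% counting interval, and for the female and the male mouse. Ctrl stands at 9.15% and 15.3% at 7 and 21 dpi, and the ADWA11 libraries at 46.1% and 54.4%.

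Detection per nucleus was compared at a fixed 2000 UMIs, which left out 247, 141 and 79 shallower fibroblast-like nuclei of Ctrl, ADWA11 and Tgfbr2-cKO at 7 dpi, then 1514, 130 and 164 at 21 dpi. Col6a5 was found in 3.45% of Ctrl, 11.3% of ADWA11 and 7.91% of Tgfbr2-cKO fibroblast-like nuclei at 7 dpi, then in 3.13, 9.20 and 2.08% at 21 dpi. Col6a6 was found in 1.96, 7.1 and 7.06% at 7 dpi, then in 0.772, 2.94 and 1.32% at 21 dpi. In myeloid-like nuclei, which should lack both, Col6a5 was found in 0.0483 to 0.454% and Col6a6 in 0 to 0.227%, so the fibroblast shares lay above this background in every library. Counted without thinning, Col6a5 was found in 7.22, 23.1 and 10.6% of fibroblast-like nuclei at 7 dpi and 5.85, 18.2 and 4.46% at 21 dpi, and Col6a6 in 4.11, 16.9 and 9.01% and in 1.76, 7.63 and 3.25%. Depth was uneven, since before thinning the median was 5587 to 9590.5 UMIs in the fibroblast-like and 3827 to 6861.5 UMIs in the myeloid-like nuclei entered. Col6a3 was found in 38.8% of Ctrl nuclei at 7 dpi and in 9.65% of Tgfbr2-cKO nuclei at 21 dpi, the ends of its range. Even before thinning, few nuclei carried much of the alternative chains, since the 5 nuclei with the most UMIs held 45.3% of Col6a5 and 44.5% of Col6a6 UMIs in Tgfbr2-cKO at 7 dpi, against 17.1% and 9.33% in ADWA11 and 26.5% and 16.2% in Ctrl at the same time. Without those 5 nuclei in each library, the >2-fold counts of higher members stayed as they were in all 4 comparisons with Ctrl.

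Finding of Col6a5 and Col6a6 in the same nucleus is given by library, at the same fixed depth. In ADWA11 at 7 dpi Col6a5 was found in 28.2% of the 181 nuclei with Col6a6 (interval 21.8 to 35.3%) and in 10.0% of those without (8.82 to 11.3%), and at 21 dpi in 22.1% of 86 (13.9 to 32.3%) and 8.81% (7.79 to 9.91%). In Ctrl it was found in 5.26% of 38 nuclei with Col6a6 (0.644 to 17.7%) and 3.41% of those without at 7 dpi, and at 21 dpi in 0 of 34, which allows a share of up to 8.82%, and in 3.16%, so no gap was detectable there at this depth. Few Ctrl nuclei had Col6a6, so the Ctrl intervals are wide, and a difference between libraries was not tested. Pooled over libraries, whose levels of both genes differ, the values in the leptomeningeal-like sub-cluster were 19.9% (14.9 to 25.8%) and 7.2% (6.25 to 8.25%). Col6a3 in the same pooled sub-cluster was found in 22.2% of nuclei with Col6a6 (16.9 to 28.2%) and 25.6% of those without (24.0 to 27.3%). Nuclei of 1 library share their source, and these shares are descriptions.

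Fibroblast-like nuclei fell into sub-clusters that were made without the collagen VI genes, and the chains were spread over them unevenly. The myofibroblast-like sub-cluster (3212 nuclei, raised for Cthrc1, Postn and Acta2) held 52.8% of the Col6a3 UMIs of fibroblasts. The leptomeningeal-like sub-cluster (3025 nuclei, raised for Lama1, Lamc3 and Aldh1a2) held 64.6% of the Col6a6 UMIs. Col6a5 was divided between an unnamed sub-cluster led by Slc47a2 and Slc47a1 (4373 nuclei, 38.8% of its UMIs) and the leptomeningeal-like nuclei (32.2%). These shares are pooled over libraries and did not hold in each. In Ctrl at 7 dpi, myofibroblast-like nuclei held 54.3% of Col6a5. In Ctrl at 21 dpi, the Slc47a2-led nuclei held 67.0% of it and the leptomeningeal-like nuclei 3.44%. Of Col6a6 in ADWA11 at 21 dpi, Slc47a2-led nuclei held 68.3% and leptomeningeal-like nuclei 28.4%. These were 73.8 and 4.12% of the fibroblasts of that library, and the levels ran the other way, at 16.0 and 149 CPM. The mix differed between libraries: myofibroblast-like nuclei were 39.4, 25.9 and 16.6% of fibroblasts in Ctrl, ADWA11 and Tgfbr2-cKO at 7 dpi, then 24.4, 4.32 and 0.465% at 21 dpi. The Slc47a2-led share at 21 dpi was 73.8% under ADWA11 and 29.7% in Ctrl, and the leptomeningeal-like nuclei were 39.9, 52.8 and 41.6% at 7 dpi, then at most 13.4% at 21 dpi. The Gabrg3-led sub-cluster (332 nuclei) came almost wholly from Tgfbr2-cKO at 21 dpi, and there had Col6a1 at 91.6, Col6a2 at 123, Col6a3 at 73.7, Col6a5 at 29.1 and Col6a6 at 6.19 CPM.

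Within sub-clusters, Col6a3 was at 479 CPM in Ctrl, 324 in ADWA11 and 382 in Tgfbr2-cKO myofibroblast-like nuclei at 7 dpi, then at 434 in Ctrl and 403 in ADWA11 at 21 dpi. The 21 dpi pair had a log2 ratio of -0.11 (interval -0.27 to 0.05), while ADWA11 fibroblasts as a whole were at -1.24. The mice went opposite ways in this pair, with 506 CPM in the ADWA11 and 418 in the Ctrl female, but 329 in the ADWA11 and 437 in the Ctrl male. Tgfbr2-cKO at 21 dpi had 5 such nuclei, too few for a level. In the Slc47a2-led nuclei at 21 dpi, Col6a3 was at 72.6 CPM in Ctrl, 74.2 in ADWA11 and 34.8 in Tgfbr2-cKO. In the leptomeningeal-like nuclei it was at 220, 144 and 216 CPM at 7 dpi, then at 147, 95.9 and 87.8 CPM at 21 dpi. Here the Tgfbr2-cKO mice stood apart, with 147 CPM in the female and 276 in the male at 7 dpi against 195 and 256 in Ctrl, then 47.1 and 145 CPM at 21 dpi against 142 and 127 in Ctrl, so the female alone was below Ctrl at each time. In myofibroblast-like nuclei at 7 dpi the Tgfbr2-cKO mice, at 386 and 445 CPM, overlapped those of Ctrl, at 545 and 423.

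Col6a5 at 7 dpi was at 20 CPM in Ctrl, 141 in ADWA11 and 82.7 in Tgfbr2-cKO leptomeningeal-like nuclei, and at 32.7, 109 and 173 CPM in myofibroblast-like nuclei. The Tgfbr2-cKO values were carried mostly by 1 mouse: the female and male were at 151 and 32.4 CPM in leptomeningeal-like nuclei, and at 249 and 48.3 CPM in myofibroblast-like nuclei, the last on 9 UMIs. The Ctrl female and male were at 25.6 and 10.5 CPM, and at 40.4 and 26.7 CPM, in the same order. The Tgfbr2-cKO male was thus also above both Ctrl mice, in a library pair whose Ctrl values chose the gene. The Slc47a2-led nuclei at 7 dpi ran the other way under ADWA11, at 17.7 CPM against 37.7 in Ctrl on 26 and 25 UMIs. ADWA11 against Ctrl at 7 dpi is again a description within sub-clusters, since the same nuclei chose the gene. At 21 dpi the Slc47a2-led nuclei had 55.8 CPM in Ctrl, 102 in ADWA11 and 26.9 in Tgfbr2-cKO, a log2 ratio of 0.87 (interval 0.74 to 0.99) for ADWA11 and -1.06 (-1.67 to -0.50) for Tgfbr2-cKO against Ctrl. Here too the mice were split, since the ADWA11 female was at 175 CPM against 40.1 in the Ctrl female, and the ADWA11 male at 64.5 against 75.8 in the Ctrl male. The leptomeningeal-like nuclei of ADWA11 at 21 dpi were at 14.4 CPM against 22 in Ctrl, on 12 and 37 UMIs. The sexes went opposite ways there, with 38.4 CPM in the ADWA11 and 6.57 in the Ctrl female, and 2.12 and 49.2 CPM in the males, so no direction is given.

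Col6a6 in leptomeningeal-like nuclei was at 16.9 CPM in Ctrl, 78.9 in ADWA11 and 62 in Tgfbr2-cKO at 7 dpi, then at 53, 149 and 20.7 CPM at 21 dpi. The Tgfbr2-cKO female was at 131 and the male at 20.3 CPM at 7 dpi. For ADWA11 against Ctrl at 21 dpi the log2 ratio was 1.49 (interval 1.08 to 1.90), and for Tgfbr2-cKO it was -1.36 (-2.14 to -0.65). At 21 dpi the Ctrl level was thus higher than at 7 dpi within these nuclei, while over all fibroblasts it was lower. The Ctrl values at 7 dpi are among those that chose the gene, so this is a description. Ctrl mice also overlapped between the times. Female and male were at 7.82 and 23.4 CPM at 7 dpi, then at 19.7 and 71.8 CPM at 21 dpi. Mice were uneven again, with 330 CPM in the female and 72.0 in the male of ADWA11 at 21 dpi, against 19.7 and 71.8 in Ctrl, so the males of the 2 groups stood at almost the same level. The Tgfbr2-cKO female and male at 21 dpi, at 12.3 and 36.4 CPM on 6 and 14 UMIs, overlapped the Ctrl mice. In the Slc47a2-led nuclei at 21 dpi, Col6a6 was at 3.25 CPM in Ctrl and 16 in ADWA11, a log2 ratio of 2.30 (1.83 to 2.80).

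**Figure D4:**
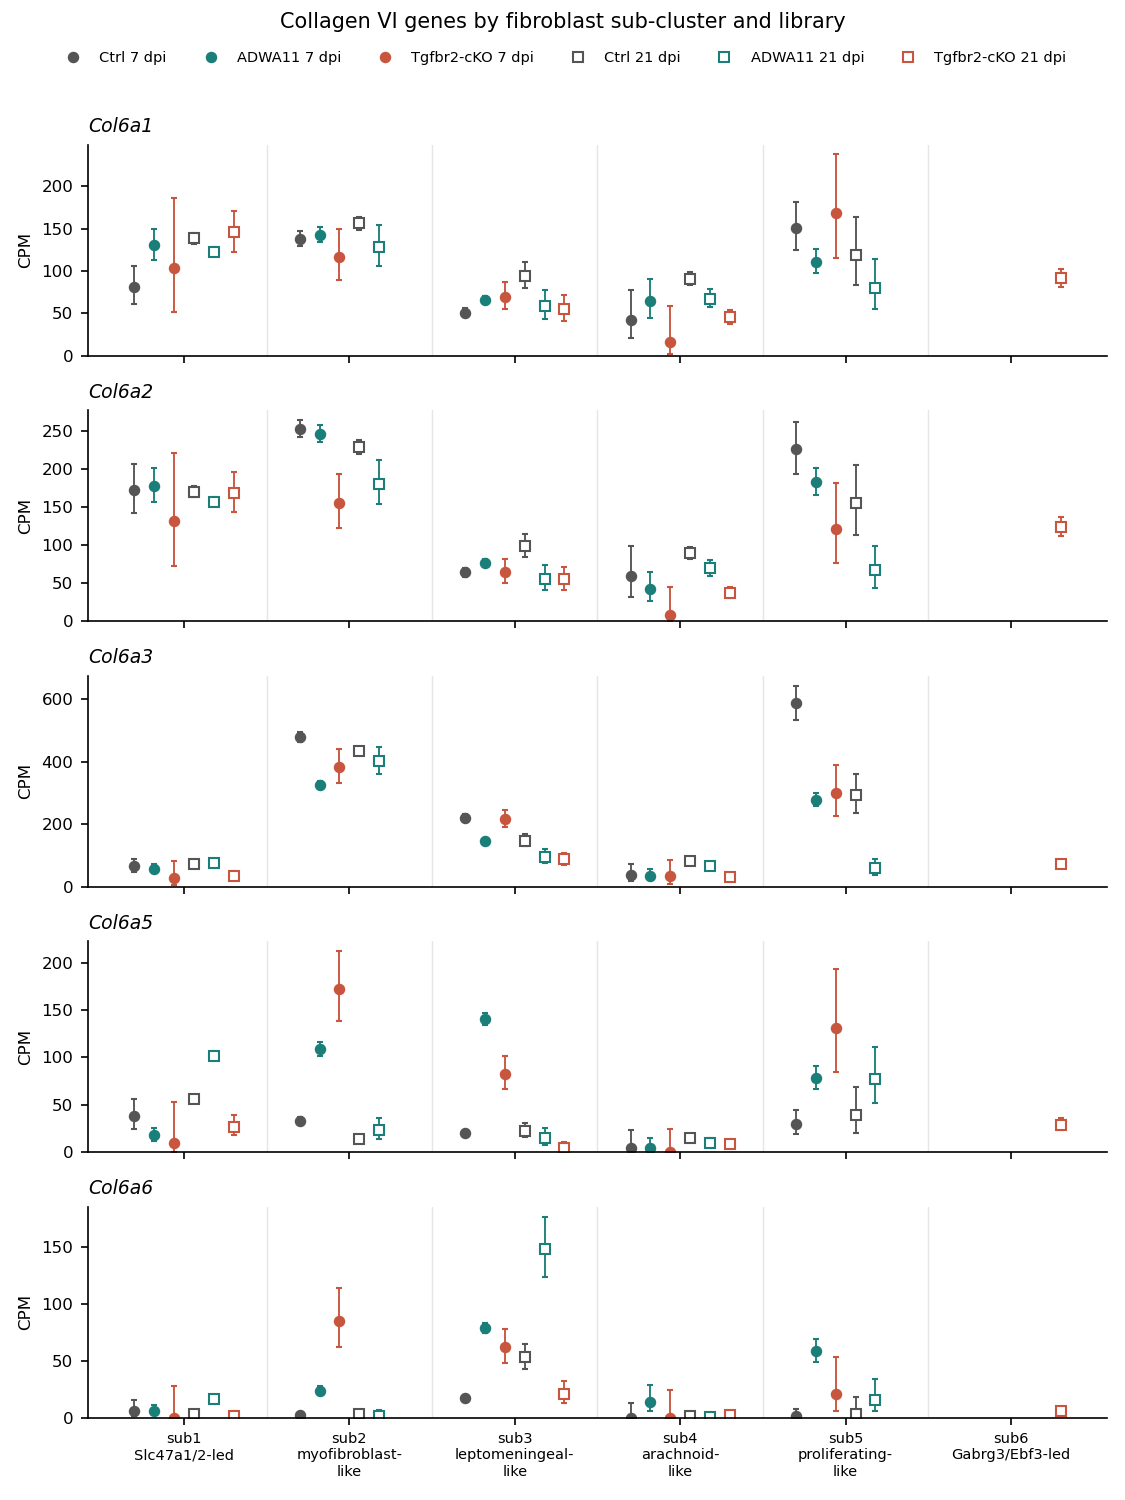
Level of Col6a3, Col6a5 and Col6a6 in each fibroblast sub-cluster and library with at least 20 nuclei, in CPM. Col6a3 is at 324 to 479 CPM in myofibroblast-like nuclei of Ctrl, ADWA11 and Tgfbr2-cKO, and Col6a6 is at its highest, 149 CPM, in leptomeningeal-like nuclei of ADWA11 at 21 dpi.

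Outside the fibroblast-like nuclei the chains parted further. Pooled over libraries of unlike make-up, fibroblast-like nuclei held 57.3% of all Col6a1 UMIs, 75.4% of Col6a2, 77.7% of Col6a3, 90.9% of Col6a5 and 81.8% of Col6a6. An unnamed cluster of 685 nuclei led by bone-matrix genes had the highest Col6a3, at 1037 CPM in Ctrl and 566 in ADWA11 at 7 dpi and 761 and 624 CPM at 21 dpi. In this cluster Col6a5 and Col6a6 were at 5.76 and 3.22 CPM over all libraries. Mural-like nuclei, the pericytes and smooth muscle of vessels, had Col6a1, Col6a2 and Col6a3 at 85.7, 113 and 128 CPM and Col6a5 and Col6a6 at 2.42 and 2.07 CPM. Endothelial-like nuclei had Col6a6 at 19.1 CPM over all libraries, against 21 CPM in fibroblasts, and Col6a5 at 7.97 against 62.4 CPM. Of the fibroblast Col6a6 UMIs, 1426 came from ADWA11 at 7 dpi, and in Ctrl the order was the other way, with endothelial-like nuclei above the 8.36 and 5.22 CPM of fibroblasts at 7 and 21 dpi, the counting intervals overlapping at 7 dpi and not at 21 dpi. Endothelial Col6a6 was at 13.2 CPM in Ctrl and 33 in ADWA11 at 7 dpi, then at 15.1 and 21 CPM at 21 dpi, on 25, 52, 51 and 46 UMIs.

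**Figure D5:**
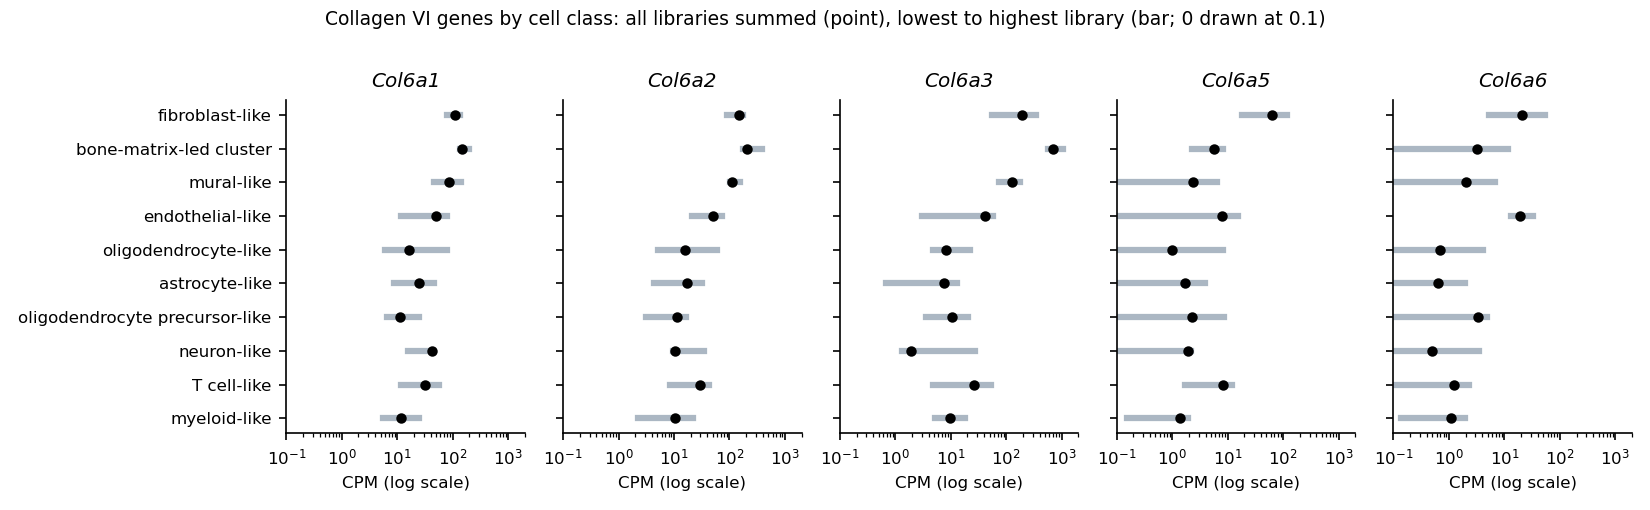
Level of each collagen VI gene by class, pooled over the 6 libraries, in CPM. Col6a5 is at 62.4 CPM in fibroblast-like nuclei and 7.97 in endothelial-like nuclei, while Col6a6 is at 21 and 19.1 CPM in the same classes, while in Ctrl at 21 dpi they were at 5.22 and 15.1 CPM.

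Neuronal clusters held 23.1% of all Col6a1 UMIs. In Tgfbr2-cKO at 7 dpi, the library with the most neurons, Col6a1 was at 71.4 CPM in cluster 19 (led by Hs3st4 and Syt6), 61.9 in cluster 20 (Drd2 and Rgs9), 41.4 in cluster 9, 33.2 in cluster 18, 15.1 in cluster 17 (Gad1 and Kcnc2) and 1.89 in cluster 23. Over neurons of all libraries Col6a1 was at 42.5 CPM, Col6a2 at 10.4, Col6a3 at 1.94, Col6a5 at 1.90 and Col6a6 at 0.490 CPM. Cluster 19 of Tgfbr2-cKO at 21 dpi had 70.3 CPM of Col6a1, close to its value at 7 dpi. Of the 172 Col6a4 UMIs in the series, 105 (61%) were in neuronal clusters, but 100 of the 172 came from Tgfbr2-cKO at 7 dpi, the library with most neurons. As a level, Col6a4 was at 0.886 CPM in neurons and 0.921 CPM in the bone-matrix-led cluster, the latter on 4 UMIs.

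For whole libraries, where fewer fibroblasts and less RNA per fibroblast cannot be told apart, Col6a3 was at 136 CPM in Ctrl, 70.5 in ADWA11 and 6.51 in Tgfbr2-cKO at 7 dpi, then at 133, 52.9 and 12.3 CPM at 21 dpi. Fibroblast-like nuclei were 27.3, 25.2 and 4.09% of nuclei in these libraries at 7 dpi and 48.5, 25.4 and 16.5% at 21 dpi. Whole-library Col6a5 was at 9.33, 35.7 and 3.81 CPM at 7 dpi, so Tgfbr2-cKO was lower than Ctrl there and higher within fibroblasts.

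The other genes of the collagen VI pathway were taken from lists of receptors and binding integrins, matrix partners, biosynthesis, processing enzymes and other collagens, 45 genes in all. Their values are over all fibroblast-like nuclei, and were not reweighted or made by sub-cluster or by mouse. The mix of sub-clusters differed between libraries, and its part in these values was not tested. For ADWA11 against Ctrl at 7 dpi, 0 of 42 genes with at least 50 UMIs were over 2-fold higher and 3 lower, against 4.72% and 2.54% of all genes, with a median log2 ratio of -0.19 against 0.07 over all genes. The 3 were Cspg4 (NG2, a collagen VI receptor) at -1.48, Matn4 (matrilin-4, an adaptor of collagen VI filaments) at -1.26 and Bgn (biglycan, which binds collagen VI) at -1.19. At 21 dpi 0 of 43 were higher and 3 lower, against 2.43% and 3.72% of all genes, with a median of -0.08 against -0.00 over all genes, namely Matn4 at -1.27, Plod2 (a lysyl hydroxylase) at -1.27 and Colgalt2 (a collagen galactosyltransferase, 7 against 49 UMIs) at -2.29. Matn4 was at 55.7 CPM in Ctrl and 23.2 in ADWA11 at 7 dpi, then at 146 and 60.6 CPM at 21 dpi.

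In Tgfbr2-cKO at 7 dpi 0 of 41 pathway genes were over 2-fold higher and 8 lower, against 7.39% and 2.99% of all genes, with a median of -0.19 against 0.09 over all genes. Matn4 was lowest, at 3.42 CPM against 55.7 in Ctrl, a log2 ratio of -4.03 (interval -5.24 to -3.04) on 8 UMIs. Itga11 (the alpha11 integrin subunit, a collagen receptor of fibroblasts) was at -1.63, Col1a2 at -1.59 and Col1a1 at -1.39. At 21 dpi 3 of 43 were higher and 14 lower, against 7.78% and 6.28% of all genes, with a median of -0.34 against -0.01. Myofibroblast-like nuclei were 0.465% of the Tgfbr2-cKO and 24.4% of the Ctrl fibroblasts in this comparison. Matn4 was at -3.87 (-4.20 to -3.56), Col1a1 at -2.75, Col1a2 at -2.67 and Itga11 at -2.12. The 3 higher genes were Mmp9 (a gelatinase) at 2.84 on 78 and 44 UMIs, Matn2 (matrilin-2) at 1.41 and Itga1 (the alpha1 integrin subunit) at 1.01. Of the 8 other collagens, 3 at 7 dpi and 5 at 21 dpi were over 2-fold lower in Tgfbr2-cKO, and 0 at both times in ADWA11.

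Genes with the most similar pattern were ranked by Pearson's r of log2(CPM + 1) over 31 units of sub-cluster and library, among 12043 genes. The units of 1 library share its depth and those of 1 sub-cluster its definition, so r is a description. Col6a1 and Col6a2 were each other's nearest gene (r = 0.89), followed by Sparc (0.84, a collagen-binding matrix protein) and Timp1 (0.79, an inhibitor of matrix proteases) for Col6a1 and by Morrbid and Zfhx3 (both 0.87) for Col6a2. Col6a3 was closest to Heatr5a (0.93), Col3a1 (0.91, the main chain of type III collagen) and Plod2 (0.89). Col6a5 was closest to Adamts5 (0.78, a protease of proteoglycans), P4ha1 (0.76, a collagen prolyl hydroxylase subunit) and Tgfb1i1 (0.75). Col6a6 was closest to Bicc1 (0.79), Sp3 (0.79) and Adamts12 (0.77). Between members, r of Col6a5 was 0.57 with Col6a2, 0.47 with Col6a3, 0.44 with Col6a6 and 0.42 with Col6a1. Col6a3 was at 0.59 with Col6a2, 0.51 with Col6a1 and 0.24 with Col6a6, and Col6a6 at -0.15 with Col6a2 and -0.21 with Col6a1.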

How the data were processed

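The 6 libraries were 10x Genomics single-nucleus libraries of dissected PT lesions, 1 per group. The deposited values were raw UMI counts per gene and barcode, made by the authors with Cell Ranger (7.2.0 per the file headers, 7.1.0 per the submitters' processing notes) on mm10; no normalisation had been applied. Cell Ranger of this generation counts intronic reads by default, and UMIs of near-identical genes were taken as counted.

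Of 67360 barcodes, those in the lowest or highest 2.5% of UMIs or genes, or the highest 2.5% of mitochondrial share, were left out per library, and 61917 remained. In Seurat 5.3.0 (R 4.3.3), SCTransform (sctransform 0.4.2) was run, and nuclei were clustered on 30 components at a resolution of 0.5, and at 0.2 for fibroblasts. The collagen VI genes were left out of the variable genes for all nuclei, and 111 list and marker genes, collagen VI included, for fibroblasts. Names needed 3 raised markers, in at least 5% of nuclei and at 2-fold or more. Doublets were scored against 2 simulated doublets per nucleus. After the clusters had been seen, the fibroblast sub-cluster with the highest share of called doublets was divided again, and 1 resulting sub-cluster of 1914 nuclei, 60.2% of them called doublets, was left out. Called doublets elsewhere were kept, and were 19.3% of the Gabrb1-led and 17.4% of the proliferating-like fibroblast sub-cluster. Neurons are given by cluster and were not compared as a class. Nuclei with Xist but without Y-linked UMIs were called female, and the reverse male.

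UMIs were summed per class and library. CPM carry exact Poisson, shares exact Clopper-Pearson and log2 ratios exact conditional binomial 95% intervals. A library at 0 was set to a floor of 3 counts. Calls were ratios past 2-fold among genes with at least 50 UMIs over both libraries. On simulated counts of 14927 genes for ADWA11 against Ctrl at 7 dpi, the intervals covered 95.6% of the true ratios. These counts were drawn from the Poisson model that the intervals assume, so only the calculation was checked. UMIs held by few nuclei and differences between mice were not simulated. Partner genes were named where past 2-fold with an interval excluding 0, at most 4 per direction, and similar genes were the 3 with the highest r among genes with at least 500 UMIs, over units of at least 50 nuclei. The members, lists and named-gene rules were chosen with earlier results of these data known. Promoters came from RefSeq. Python 3.11.15, SciPy 1.17.1 and edgeR 4.0.16 (for TMM factors only) were used.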

Additional observations from a re-analysis of the deposited data

Results flagged for a closer look

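The log2 ratio of Col6a5 between the Tgfbr2-cKO and Ctrl libraries, in fibroblast-like nuclei, was 1.89 at 7 dpi and -0.83 at 21 dpi. Set against the Ctrl mouse of the same sex, female and male were at 2.11 and 1.04 at 7 dpi, then at -2.12 and -0.65 at 21 dpi. The Ctrl library at 7 dpi is one of the pair that chose Col6a5, so nothing is read from the 7 dpi values. In Tgfbr2-cKO at 7 dpi, 5 nuclei held 45.3% of the Col6a5 UMIs. At 21 dpi the mice overlapped across sexes, the Tgfbr2-cKO male at 30 CPM lying above the Ctrl female at 22.1 CPM. The change of Col6a5 from 7 to 21 dpi was 0.25 in Ctrl, -0.44 in ADWA11 and -2.47 in Tgfbr2-cKO, where the 7 dpi values of Ctrl and ADWA11 are among those that chose the gene. These differences were not tested.

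Under ADWA11 at 7 dpi the log2 ratio to Ctrl also differed in sign between sub-clusters. Col6a1 was at 0.67 in the Slc47a2-led and 0.39 in the leptomeningeal-like nuclei and at -0.45 in the proliferating-like nuclei. Col6a2 was at 0.26 in the leptomeningeal-like and -0.31 in the proliferating-like nuclei. Col6a5 was at 1.73 in the myofibroblast-like, 2.81 in the leptomeningeal-like and 1.40 in the proliferating-like nuclei, and at -1.09 in the Slc47a2-led nuclei, where it rests on 26 and 25 UMIs. None of these differences was tested, and Col6a5 at 7 dpi was among the values that chose the genes.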

How the results depend on the processing

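Of 455 log2 ratios recomputed under 13 alternatives, 349 stayed inside the counting interval of the reported value, 98 moved outside it and 8 reversed, which means a changed sign in a ratio whose interval excluded 0; the causes were not tested. The reversed values were Col6a6 in Tgfbr2-cKO against Ctrl at 7 dpi (-0.072 in male nuclei alone), and, for 21 against 7 dpi, Col6a5 in Ctrl (-0.61 in female nuclei alone, -0.35 reweighted to the sub-cluster mix at 7 dpi), Col6a6 in Ctrl (1.51 reweighted), Col6a1 in ADWA11 (-0.16 reweighted), Col6a5 in ADWA11 (0.30 female) and Col6a6 in ADWA11 (0.35 female, 0.59 reweighted). Signs also changed in 7 ratios whose interval held 0, with values reaching 0.077 for Col6a1 in ADWA11 (reweighted) and 0.27 in Tgfbr2-cKO (male) against Ctrl at 7 dpi, -1.31 for Col6a6 in Tgfbr2-cKO at 21 dpi (reweighted), and, for 21 against 7 dpi, 0.22 for Col6a1 in Tgfbr2-cKO (female) and -0.058 (Ctrl, female), -0.48 (ADWA11, reweighted) and 0.14 (Tgfbr2-cKO, male) for Col6a2. Chains over 2-fold higher numbered 1 in male nuclei alone and 1 after reweighting for ADWA11 at 21 dpi, and 1 in male nuclei alone for Tgfbr2-cKO at 7 dpi. Chains over 2-fold lower numbered 0 after reweighting for ADWA11 at 21 dpi, and 1 for Tgfbr2-cKO at 7 dpi with the mean of CPM per nucleus, with TMM factors and without the top 5 nuclei. For Tgfbr2-cKO at 21 dpi they numbered 2 with the mean per nucleus, with female nuclei, with male nuclei and with collagen VI genes kept in clustering, and 3 without the top 5 nuclei and after reweighting. The share of Col6a5 and Col6a6 in female and male nuclei was 9.36 and 8.33% in Ctrl, 37.5 and 55.6% in ADWA11, and 53.3 and 16% in Tgfbr2-cKO at 7 dpi, then 12.3 and 18.8%, 64.2 and 44.6%, and 19.6 and 35% at 21 dpi. TMM factors moved the median of all genes by -0.21 for Tgfbr2-cKO against Ctrl at 7 dpi and by at most 0.08 in size elsewhere.

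Putting the left-out doublet sub-cluster back was chosen after seeing the data, and no ratio reversed under it. Reweighting for Tgfbr2-cKO at 21 dpi left out the myofibroblast-like, the proliferating-like and the Gabrg3-led sub-cluster, which had fewer than 10 nuclei in 1 of the libraries. The ratios of female to female and of male to male nuclei are the values in 1 sex alone. Depth limits the Tgfbr2-cKO levels, with 46 Col6a6 UMIs at 21 dpi.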
